A study of Homo sapiens with 12 samples.

Results

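The genes described here are 10 genes that low oxygen induces and that encode no glycolytic enzyme: VEGFA, ADM, NDRG1, ANKRD37, P4HA1, P4HA2, KDM3A, BHLHE40, LOX and NDUFA4L2. They were taken by exact gene symbol from the 58307 rows of the count table that name a gene, and each was found. All 10 passed the expression filter in both cell lines. When oxygen is scarce, the alpha subunits of the hypoxia-inducible factors escape hydroxylation and degradation, pair with ARNT, and bind hypoxia response elements near target genes. The targets supply oxygen through new vessels (VEGFA, ADM), modify collagen (P4HA1, P4HA2, LOX), reset chromatin and transcription (KDM3A, BHLHE40) and adapt the cell and its mitochondria (NDRG1, ANKRD37, NDUFA4L2).

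The libraries came from A375 and SK-MEL-28, established human melanoma lines, each treated with etoposide, a poison of topoisomerase II, or with etoposide + rapamycin, an mTOR inhibitor, in a study of autophagy and drug response. Every group carried etoposide, so the comparisons describe rapamycin on top of etoposide, and no untreated or rapamycin-only library was analysed here. The 12 libraries of polyA-enriched RNA divide evenly, 3 to each of 4 groups, and doses, exposure times and oxygen tension for the sequenced cells are not given in the sources used here. The study calls the 3 libraries of a group biological replicates, and neither it nor the labels say how the cultures were kept apart, so p-values measure the spread between these samples.

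Libraries held 28189501 to 32499337 counts. Of the melanocyte lineage markers, SOX10 averaged 291 to 475 CPM (counts per library put on 1 scale by sequencing depth) over the 4 groups and S100B 58.5 to 98.2 CPM, whereas TYR averaged at most 0.09 CPM and PMEL at most 2.50 CPM. The summed level of the 8 melanocyte markers ranged from 400 to 655 CPM in A375 with etoposide + rapamycin, from 481 to 598 CPM in A375 with etoposide, from 294 to 526 CPM in SK-MEL-28 with etoposide + rapamycin and from 425 to 550 CPM in SK-MEL-28 with etoposide. For 10 markers of fibroblasts, endothelium and leukocytes the sums were 48.2 to 67.1, 46.4 to 62.1, 44.3 to 65.2 and 53.3 to 58.7 CPM in the same order, so the sums overlapped. These sums are led by SOX10 and by CD68 or LUM, and single markers moved with the treatment. Of 7 melanocyte markers tested in each line, the medians were -0.48 (A375) and -0.23 (SK-MEL-28). MITF fell in both lines (-0.51 ± 0.10, adjusted p = 0.00248, and -0.50 ± 0.097, adjusted p = 0.0032), and S100B (-0.58 ± 0.063, adjusted p = 4.1e-05) and DCT (-1.70 ± 0.43, adjusted p = 0.0106) fell in A375. DCT was low there, with 17 to 24 counts per library with etoposide and 6 to 7 with etoposide + rapamycin. Of the other markers, 5 of 6 tested were negative in A375 and 7 of 8 in SK-MEL-28, with medians of -0.50 and -0.68. LUM was called lower in both lines, DCN in A375 and PECAM1 in SK-MEL-28, while CD68 rose in both, by 0.53 ± 0.17 (adjusted p = 0.0314) and 0.64 ± 0.20 (adjusted p = 0.0384). CD68 levels with and without rapamycin overlapped in both lines. The part of these markers in the results below was not tested. CD3E averaged at most 0.07 CPM and PTPRC at most 0.46 CPM. These are bulk libraries, in which fewer cells with a transcript and less transcript per cell cannot be told apart.

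Below, a gene fell or rose where edgeR's quasi-likelihood test gave a Benjamini-Hochberg adjusted p under 0.05 over all genes tested, and it was called where its fold change was also over 1.5. Fold changes are of etoposide + rapamycin over etoposide, and errors of fold changes are standard errors.

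Promoters of these genes are shown first because the hypoxia response element is the sequence they are known for. The core letters searched were ACGTG and GCGTG on either strand, in the 300 bases from 250 before to 50 after the start listed by RefSeq (GRCh38.p14). Of the 10 genes, 7 had an entry in the promoter set used here, and 6 of these 7 held at least 1 match. Among all 35116 promoters of that length, 48.4% held a match, as did 61.3% of the 12034 that belong to genes tested here. Of the 7, 4 are printed 5′ to 3′ on the strand of the gene, the first 3 from genes that fell in at least 1 line with 4, 3 and 1 matches and the last from a gene that was called with none. Capitals mark the core letters, or CACGT and CACGC where they lie on the other strand.
BHLHE40: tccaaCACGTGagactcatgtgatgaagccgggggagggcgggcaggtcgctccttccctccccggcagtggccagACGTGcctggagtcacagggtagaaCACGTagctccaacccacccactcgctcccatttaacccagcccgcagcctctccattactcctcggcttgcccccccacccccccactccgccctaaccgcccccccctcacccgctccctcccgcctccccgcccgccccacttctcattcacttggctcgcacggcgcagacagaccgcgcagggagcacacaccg
ANKRD37: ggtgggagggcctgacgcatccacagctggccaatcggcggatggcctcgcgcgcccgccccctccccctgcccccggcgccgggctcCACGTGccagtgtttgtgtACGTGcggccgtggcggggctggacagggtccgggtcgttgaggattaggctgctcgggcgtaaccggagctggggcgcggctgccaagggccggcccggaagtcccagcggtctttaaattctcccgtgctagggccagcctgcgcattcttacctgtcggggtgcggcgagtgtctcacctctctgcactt
P4HA1: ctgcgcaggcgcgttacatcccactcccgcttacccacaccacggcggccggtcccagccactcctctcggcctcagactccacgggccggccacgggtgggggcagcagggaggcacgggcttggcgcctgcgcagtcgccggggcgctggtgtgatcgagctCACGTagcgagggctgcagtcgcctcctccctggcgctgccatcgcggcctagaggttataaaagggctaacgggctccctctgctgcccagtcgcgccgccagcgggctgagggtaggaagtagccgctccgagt
P4HA2: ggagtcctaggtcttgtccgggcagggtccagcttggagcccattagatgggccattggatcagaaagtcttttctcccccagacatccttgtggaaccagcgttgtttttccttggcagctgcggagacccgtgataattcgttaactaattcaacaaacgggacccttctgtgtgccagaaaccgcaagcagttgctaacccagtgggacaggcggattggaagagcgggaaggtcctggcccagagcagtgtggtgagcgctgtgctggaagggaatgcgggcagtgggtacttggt

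These 4 promoters lie at chr3:4979187-4979486 (plus strand), chr4:185396591-185396890 (plus strand), chr10:73096817-73097116 (minus strand) and chr5:132227042-132227341 (minus strand). In BHLHE40 and ANKRD37 the letters CACGTG form a palindrome, so the same 6 bases count as a match on each strand, at positions -245 and -244 from the start in BHLHE40 and at -162 and -161 in ANKRD37. LOX held 4 matches, and ADM and KDM3A held 1 each, both of them GCGTG. Of all promoters, 23.1% held 2 or more matches and 10.1% held 3 or more. A match was found in 23 of 26 promoters of other hypoxia-induced genes, in 14 of 20 promoters of hypoxia-induced glycolytic genes and in 5 of 12 promoters of paralogs of the 10 genes. The starts used here for ANKRD37, P4HA1, P4HA2, KDM3A and LOX lie inside those genes as GENCODE draws them. Which start these cells used was not measured. No match says only that these letters are not in this window.

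**Figure D1:**
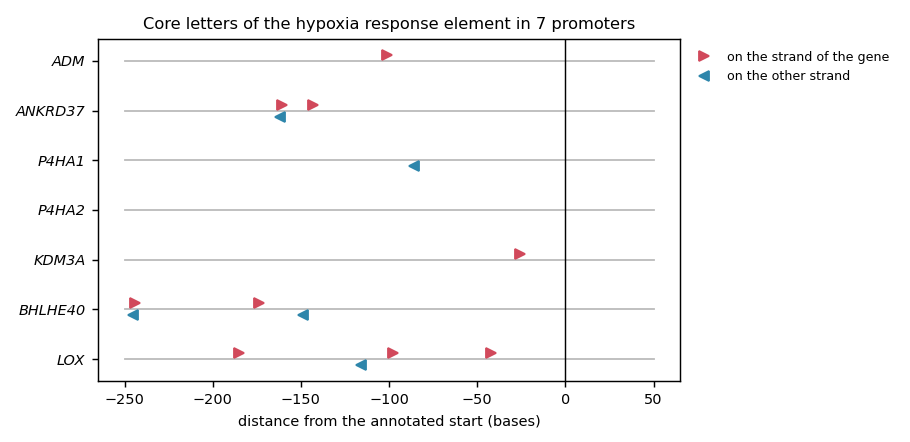
Positions of the core letters ACGTG or GCGTG in the promoters of the 7 genes with an entry, against the distance from the annotated start in bases, with right-pointing triangles for matches on the strand of the gene and left-pointing ones for the other strand. BHLHE40 and LOX each carry 4 matches, the single match of KDM3A lies at -26, and the line of P4HA2 is empty.

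In both lines most of the 10 genes were lower with rapamycin, and 1 gene in A375 and 3 in SK-MEL-28 were called. In A375, 9 of the 10 log2 fold changes were negative, with a median of -0.41 beside -0.01 over the 18844 genes tested. In SK-MEL-28, 9 of 10 were again negative, with a median of -0.39 beside 0.01 over 18897 genes. In A375 the gene called was BHLHE40, beside a background of 2.80% of genes called lower and 3.09% called higher. In SK-MEL-28 the genes called were BHLHE40, NDRG1 and P4HA2, beside 3.14% called lower and 1.85% called higher. On the adjusted p alone 7 of the 10 fell in A375, where 13.8% of all genes fell and 14.3% rose. The corresponding count in SK-MEL-28 was 8 of 10, where 10.1% fell and 8.83% rose. None of the 10 rose in either line. The 3 libraries with rapamycin lay below all 3 without it for 9 genes in A375, against 21.9% of all genes, and for 8 genes in SK-MEL-28, against 18.2%. The summed level of the 10 genes was 796 ± 6.46 CPM (SD, n = 3) with etoposide and 607 ± 14.1 CPM (SD, n = 3) with etoposide + rapamycin in A375. The same sums in SK-MEL-28 were 831 ± 5.70 and 536 ± 13.1 CPM (SD, n = 3 each), and NDRG1 supplied the largest share of each.

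**Figure D2:**
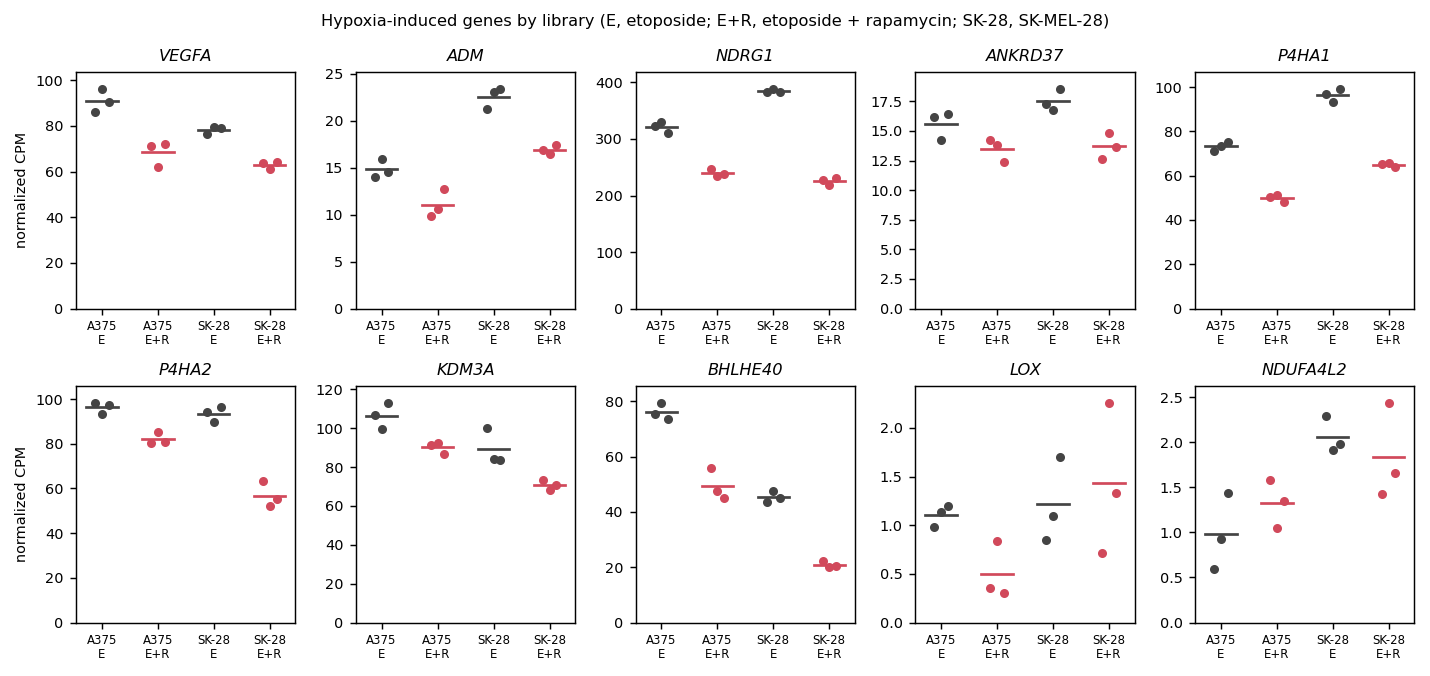
Normalized CPM (vertical axes, from 0) of each of the 10 genes in the 12 libraries, as points, with the group mean as a bar, for A375 and SK-MEL-28 (SK-28) with etoposide (E, grey) and etoposide + rapamycin (E+R, red). For VEGFA, ADM, NDRG1, ANKRD37, P4HA1, P4HA2, KDM3A and BHLHE40 the red points lie below the grey ones in both lines, while those of NDUFA4L2 overlap in both and those of LOX in SK-MEL-28.

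**Figure D3:**
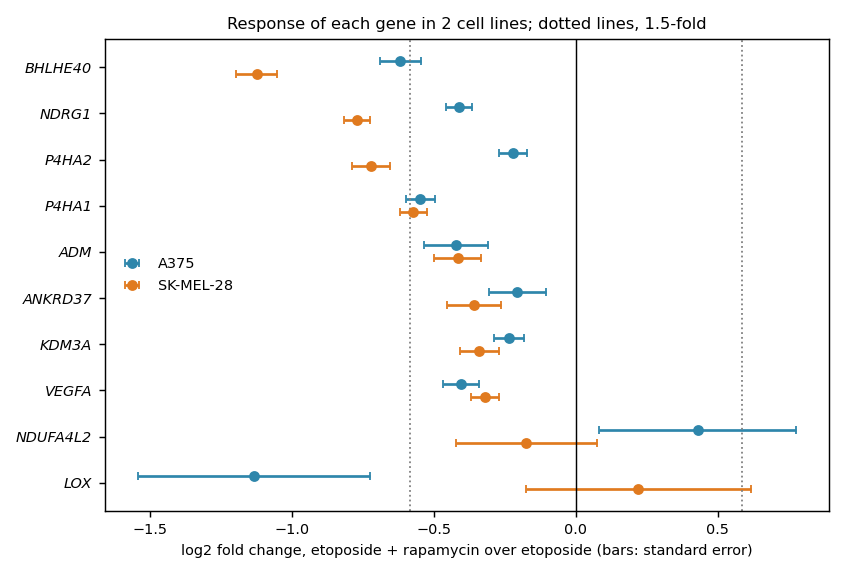
Log2 fold change of each gene, etoposide + rapamycin over etoposide (horizontal axis), in A375 (blue) and SK-MEL-28 (orange), with bars for the standard error and dotted lines at 1.5-fold. BHLHE40 lies beyond the line in both cell lines, NDRG1 and P4HA2 in SK-MEL-28, and LOX in A375, where it did not pass the test. The bars of LOX and NDUFA4L2, at 9 to 70 counts per library, are the widest.

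BHLHE40 had the lowest fold change of the 8 genes that held over 100 counts in every library. It encodes a basic helix-loop-helix repressor that also acts on the circadian clock, and it lies at chr3:4979437-4985323 with 5 exons in its canonical transcript. In A375 it stood at 75.4, 79.3 and 73.8 CPM with etoposide and at 55.7, 47.5 and 45.1 CPM with etoposide + rapamycin. The SK-MEL-28 libraries gave 43.7, 47.6 and 45.2 CPM with etoposide and 22.3, 20.01 and 20.4 CPM with etoposide + rapamycin. The groups did not overlap in either line, and the SK-MEL-28 libraries with rapamycin held the lowest values of all 12. The log2 fold change was -0.62 ± 0.072 in A375 (adjusted p = 6.59e-05) and -1.12 ± 0.073 in SK-MEL-28 (adjusted p = 5.6e-07). BHLHE40 ranked 1118th from the lowest fold change of 18844 genes in A375 and 348th of 18897 in SK-MEL-28. Without etoposide + rapamycin replicate 3, the A375 value was -0.56 and BHLHE40 was no longer called. An antisense RNA, BHLHE40-AS1, shares 182 exonic bases with it, and averaged 2 to 8 counts per group beside 626 to 2236 for BHLHE40. The strand setting of the counting is not stated, so reads of an antisense pair cannot be told apart where the genes overlap.

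KDM3A, a histone demethylase that removes a repressive methyl mark, changed less. Its gene lies at chr2:86440647-86492716 and its canonical transcript has 26 exons. In A375 it stood at 107, 99.7 and 113 CPM with etoposide and at 91.4, 92.1 and 86.6 CPM with etoposide + rapamycin. Levels in SK-MEL-28 were 100.02, 84.1 and 83.9 CPM with etoposide and 73.3, 68.1 and 70.8 CPM with etoposide + rapamycin. The groups stayed apart in both lines, although etoposide replicate 1 of SK-MEL-28 was well above the other two. The fold changes, -0.24 ± 0.054 in A375 (adjusted p = 0.00604) and -0.34 ± 0.068 in SK-MEL-28 (adjusted p = 0.0038), passed the adjusted p and not the 1.5-fold threshold.

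Of the secreted signals, VEGFA encodes the main growth factor of blood vessel endothelium and ADM the vasodilator peptide adrenomedullin. VEGFA lies at chr6:43770184-43786487 (8 exons) and ADM at chr11:10305073-10307397 (4 exons). In A375, VEGFA stood at 86.1, 96.0 and 90.6 CPM with etoposide and at 71.0, 62.2 and 72.1 CPM with etoposide + rapamycin. SK-MEL-28 held 76.3, 79.5 and 79.3 CPM with etoposide and 63.6, 61.2 and 64.1 CPM with etoposide + rapamycin. The groups did not overlap in either line. VEGFA fell by 0.40 ± 0.064 on the log2 scale in A375 (adjusted p = 0.00057) and by 0.32 ± 0.048 in SK-MEL-28 (adjusted p = 0.000558). ADM stood at 14.03, 16.0 and 14.5 CPM in A375 with etoposide and at 9.87, 10.6 and 12.7 CPM with etoposide + rapamycin. In SK-MEL-28 it stood at 21.3, 23.0 and 23.3 CPM with etoposide and at 16.9, 16.5 and 17.4 CPM with etoposide + rapamycin. Here too each line's groups stood apart. The fold changes of ADM were -0.42 ± 0.114 in A375 (adjusted p = 0.0152) and -0.41 ± 0.083 in SK-MEL-28 (adjusted p = 0.00379). In A375 the adjusted p of ADM rose above 0.05 when etoposide + rapamycin replicate 1 (0.0642), etoposide + rapamycin replicate 2 (0.0572) or etoposide replicate 2 (0.0597) was left out.

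Of 8 receptor genes of these signals, 6 were tested. In A375 their median log2 fold change was -0.01, with 4 negative and 2 positive values, while in SK-MEL-28 the median was 0.32 and all 6 were positive. On the adjusted p, 1 rose and 1 fell in A375, and 3 rose in SK-MEL-28. CALCRL, at 3 to 23 counts per library, gave 0.08 ± 0.49 in A375 (adjusted p = 0.929) and 0.64 ± 0.58 in SK-MEL-28 (adjusted p = 0.503). RAMP2 and RAMP3, at 0 to 11 counts per library, were the genes not tested. FLT1, a receptor of VEGFA, averaged 26.3 CPM with etoposide and 26.1 CPM with etoposide + rapamycin in A375, and 14.02 and 28.9 CPM in SK-MEL-28. It rose in SK-MEL-28 (log2 fold change 1.04 ± 0.087, adjusted p = 4.4e-06), and the response differed between the lines (difference 1.06 ± 0.12, adjusted p = 9.84e-05). KDR, the principal signaling receptor of VEGFA in endothelium, fell in A375 (-0.52 ± 0.054, adjusted p = 2.5e-05) and was at 0.11 ± 0.053 in SK-MEL-28 (adjusted p = 0.177), with a difference of 0.64 ± 0.077 (adjusted p = 0.000155). NRP2, a co-receptor of the VEGF family, gave -0.09 ± 0.051 in A375 and 0.23 ± 0.056 in SK-MEL-28, with a difference of 0.33 ± 0.076 (adjusted p = 0.0169). RAMP1, a partner of the calcitonin receptor family, rose in both lines, by 0.38 ± 0.053 in A375 (adjusted p = 0.000237) and 0.40 ± 0.092 in SK-MEL-28 (adjusted p = 0.00841). VEGFB, a paralog of VEGFA, was at 0.12 ± 0.054 in A375 (adjusted p = 0.118) and rose by 0.27 ± 0.066 in SK-MEL-28 (adjusted p = 0.0122). The paralogs VEGFC and PGF were negative and did not pass the test in either line. VEGFC gave -0.26 ± 0.16 in A375 (adjusted p = 0.255) and -0.07 ± 0.13 in SK-MEL-28 (adjusted p = 0.763). PGF gave -0.11 ± 0.19 (adjusted p = 0.715) and -0.38 ± 0.13 (adjusted p = 0.0579).

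Of the 3 collagen-modifying genes, P4HA1 and P4HA2 fell in both lines and LOX did not pass the test in either. P4HA1 and P4HA2 encode alternative catalytic subunits of the collagen prolyl hydroxylase, which acts in the endoplasmic reticulum. P4HA1 lies at chr10:73007217-73096974 and P4HA2 at chr5:132190147-132295315, each with 15 exons. P4HA1 in A375 stood at 71.0, 73.5 and 75.2 CPM with etoposide and at 50.5, 51.1 and 48.2 CPM with etoposide + rapamycin. Its SK-MEL-28 libraries stood at 97.0, 93.4 and 98.9 CPM with etoposide and at 65.2, 65.8 and 64.1 CPM with etoposide + rapamycin. The 2 lines gave nearly the same fold change, -0.55 ± 0.051 in A375 (adjusted p = 1.03e-05) and -0.57 ± 0.047 in SK-MEL-28 (adjusted p = 4.16e-06), both just short of 1.5-fold. Without etoposide replicate 2, P4HA1 was called in SK-MEL-28 at -0.60.

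P4HA2 responded unequally. In A375 it stood at 98.1, 93.4 and 97.4 CPM with etoposide and at 80.6, 85.5 and 80.8 CPM with etoposide + rapamycin. SK-MEL-28 showed 94.3, 89.7 and 96.4 CPM with etoposide and 63.1, 52.2 and 55.1 CPM with etoposide + rapamycin. The lines overlapped under etoposide and stood apart with rapamycin. The fold change was -0.22 ± 0.048 in A375 (adjusted p = 0.00438) and -0.72 ± 0.067 in SK-MEL-28 (adjusted p = 1.08e-05). Its antisense RNA, P4HA2-AS1, shares 548 of its exonic bases, 12.1% of the canonical transcript, and averaged 0.333 to 0.667 counts per group.

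LOX, which oxidizes lysine residues so that collagen and elastin fibers crosslink, lies at chr5:122063195-122078413 (7 exons) and was close to the detection limit. Its raw counts in A375 were 30, 33 and 34 with etoposide and 10, 25 and 9 with etoposide + rapamycin. In SK-MEL-28 the counts were 26, 33 and 56 with etoposide and 22, 63 and 41 with etoposide + rapamycin. The groups lay apart in A375 and overlapped in SK-MEL-28. The fold changes of LOX, -1.13 ± 0.41 in A375 (adjusted p = 0.0572) and 0.22 ± 0.40 in SK-MEL-28 (adjusted p = 0.76), did not pass the test. Without etoposide + rapamycin replicate 2, LOX was called in A375 at -1.74 (adjusted p = 0.0129), and without the replicate of that number and treatment in SK-MEL-28 its value there was -0.25 (adjusted p = 0.741). SRFBP1, on the opposite strand, shares 138 exonic bases with LOX, 0 of them in the canonical SRFBP1 transcript. It averaged 346 to 506 counts per group, and the part of its reads in the LOX values was not tested.

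More abundant relatives of LOX were better resolved. LOXL4 averaged 831 CPM with etoposide and 516 CPM with etoposide + rapamycin in A375, and 1655 and 1012 CPM in SK-MEL-28, with fold changes of -0.68 ± 0.040 (adjusted p = 3.66e-07) and -0.71 ± 0.071 (adjusted p = 2.05e-05). LOXL2 fell by 0.56 ± 0.048 on the log2 scale in A375 (adjusted p = 5.82e-06) and by 0.98 ± 0.057 in SK-MEL-28 (adjusted p = 2.88e-07). LOXL3 averaged 212 CPM with etoposide and 214 CPM with etoposide + rapamycin in A375, and 336 and 296 CPM in SK-MEL-28. It did not pass the test in A375 (0.02 ± 0.046, adjusted p = 0.816) and fell less in SK-MEL-28 (-0.19 ± 0.049, adjusted p = 0.0177). Of 12 collagen-modifying genes listed, 11 were tested, of which 2 were called lower in A375 and 3 in SK-MEL-28 and none higher. On the adjusted p alone 6 of them fell in A375 and 8 in SK-MEL-28, and 1, CRTAP, rose in both (0.16 ± 0.045 and 0.16 ± 0.043). Several of these genes also stand in the lists of paralogs or of other hypoxia-induced genes below. P4HB, the partner subunit of both hydroxylases, gave -0.27 ± 0.040 in A375 (adjusted p = 0.000417) and -0.57 ± 0.039 in SK-MEL-28 (adjusted p = 8.55e-07). CRTAP and P4HB were named after their values were seen. P4HA3, a further catalytic subunit, did not pass the test in either line, at 0.15 ± 0.27 (adjusted p = 0.725) and -0.06 ± 0.36 (adjusted p = 0.934).

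NDRG1, a stress-responsive cytoplasmic protein named for its repression by N-myc, was the most abundant of the 10 genes. It lies at chr8:133237175-133302022 with 16 exons. In A375 it stood at 322, 329 and 310 CPM with etoposide and at 248, 235 and 238 CPM with etoposide + rapamycin. In SK-MEL-28 it stood at 383, 388 and 383 CPM with etoposide and at 228, 218 and 232 CPM with etoposide + rapamycin. The order of the lines turned over, with SK-MEL-28 above A375 under etoposide and each SK-MEL-28 library below each A375 library with rapamycin. The fold change was -0.41 ± 0.044 in A375 (adjusted p = 3.64e-05) and -0.77 ± 0.047 in SK-MEL-28 (adjusted p = 3.71e-07). A long noncoding RNA that GENCODE draws on the same strand shares 753 of the exonic bases of NDRG1. No counts were found under the identifier of that RNA, which came from a different annotation release than the one used for counting. The missing entry therefore cannot show whether reads were divided between both names. The part of reads from that RNA in the NDRG1 values was not tested.

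ANKRD37, a small ankyrin repeat protein, lies at chr4:185396021-185400628 (5 exons). In A375 it stood at 16.2, 14.3 and 16.4 CPM with etoposide and at 14.3, 13.8 and 12.4 CPM with etoposide + rapamycin. In SK-MEL-28 it stood at 17.3, 16.8 and 18.5 CPM with etoposide and at 12.7, 14.8 and 13.6 CPM with etoposide + rapamycin. The A375 groups nearly touched, and their difference of -0.21 ± 0.0996 did not pass the test (adjusted p = 0.149). ANKRD37 fell in SK-MEL-28 (-0.36 ± 0.096, adjusted p = 0.0193), but not past an adjusted p of 0.05 without etoposide + rapamycin replicate 1 (0.0717) or 3 (0.0625) or without etoposide replicate 3 (0.0957). UFSP2, on the opposite strand, shares 429 of its bases, 54.7% of the canonical transcript, and itself gave -0.48 ± 0.093 in A375 (adjusted p = 0.00205) and -0.19 ± 0.10 in SK-MEL-28 (adjusted p = 0.209). The part of UFSP2 reads in the ANKRD37 values was not tested.

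NDUFA4L2, a mitochondrial protein that restrains respiration under low oxygen, lies at chr12:57234903-57240715 (4 exons). Its raw counts in A375 were 18, 27 and 41 with etoposide and 45, 31 and 40 with etoposide + rapamycin. In SK-MEL-28 they were 70, 58 and 65 with etoposide and 44, 68 and 51 with etoposide + rapamycin. The groups overlapped in both lines. The fold changes of NDUFA4L2, 0.43 ± 0.35 in A375 (adjusted p = 0.405) and -0.17 ± 0.25 in SK-MEL-28 (adjusted p = 0.69), did not pass the test. NDUFA4, its paralog, gave -0.17 ± 0.047 in A375 (adjusted p = 0.0184) and -0.07 ± 0.069 in SK-MEL-28 (adjusted p = 0.572). SHMT2, on the opposite strand, shares 33 exonic bases with NDUFA4L2 and averaged 3801 to 4709 counts per group. SHMT2 itself gave 0.06 ± 0.050 in A375 (adjusted p = 0.389) and 0.02 ± 0.050 in SK-MEL-28 (adjusted p = 0.787). The part of SHMT2 reads in the NDUFA4L2 values, also in those between the lines below, was not tested.

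Over all paralogs listed, 15 of 16 were tested, and 3 were called lower in each line and none higher. BHLHE41, the sister repressor of BHLHE40, was called in both lines, with -0.74 ± 0.096 in A375 (adjusted p = 0.000134) and -1.16 ± 0.10 in SK-MEL-28 (adjusted p = 6.98e-06). NDRG2 was called in A375 at -0.59 ± 0.11 (adjusted p = 0.00152) and gave -0.54 ± 0.12 in SK-MEL-28 (adjusted p = 0.00598). KDM3B, a paralog of KDM3A, was at 0.14 ± 0.055 in A375 (adjusted p = 0.0703) and 0.09 ± 0.067 in SK-MEL-28 (adjusted p = 0.427). JMJD1C, another paralog of KDM3A, fell in A375 (-0.27 ± 0.063, adjusted p = 0.0075) and was at -0.02 ± 0.073 in SK-MEL-28 (adjusted p = 0.872). The response of 2 paralogs differed between the lines, LOXL2 (-0.41 ± 0.073, adjusted p = 0.00352) and NDRG4 (-0.39 ± 0.10, adjusted p = 0.036). The paralogs had a median of -0.17 in either line.

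The response differed between the lines for 3 of the 10 genes, each with the lower value in SK-MEL-28, where over all 20101 genes tested 2.97% differed in that direction and 2.66% in the other. The log2 fold change in SK-MEL-28 minus that in A375 was -0.35 ± 0.058 for NDRG1 (adjusted p = 0.00201), -0.49 ± 0.088 for P4HA2 (adjusted p = 0.00349) and -0.50 ± 0.10 for BHLHE40 (adjusted p = 0.00975). These 3 differences passed the test in all 19 alternatives, among them each of the 12 libraries left out in turn. For P4HA1 (-0.02 ± 0.068, adjusted p = 0.931), ADM (0.01 ± 0.14, adjusted p = 0.968), VEGFA (0.09 ± 0.084, adjusted p = 0.60), KDM3A (-0.10 ± 0.095, adjusted p = 0.631) and ANKRD37 (-0.15 ± 0.13, adjusted p = 0.601) no difference was detected. The wide errors of LOX (1.36 ± 0.62, adjusted p = 0.222) and NDUFA4L2 (-0.59 ± 0.44, adjusted p = 0.492) leave larger differences undetectable.

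**Figure D4:**
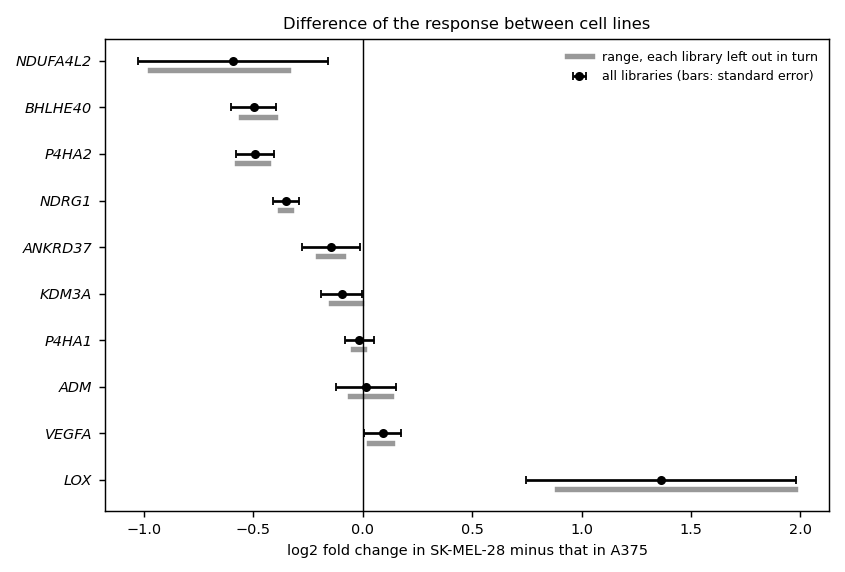
Log2 fold change in SK-MEL-28 minus that in A375 for each gene (horizontal axis), with points and bars for the estimate and standard error from all 12 libraries and grey bars for the range when each library is left out in turn. NDRG1, P4HA2 and BHLHE40 lie below 0 with narrow bars, P4HA1, ADM and VEGFA close to 0, and LOX at 1.36 with a wide bar.

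With etoposide alone the lines differed in several of these genes. SK-MEL-28 with etoposide against A375 with etoposide was called higher for ADM (0.60 ± 0.087, adjusted p = 0.000164) and NDUFA4L2 (1.07 ± 0.31, adjusted p = 0.0196), beside 5.70% of 19025 genes. It was called lower for BHLHE40 (-0.74 ± 0.060, adjusted p = 9.24e-07), beside 7.32%. On the adjusted p alone 4 of the 10 were higher, where 15.2% of genes were, and 3 were lower, where 16.5% were. The other genes that passed were NDRG1 (0.26 ± 0.045) and P4HA1 (0.40 ± 0.054), higher in SK-MEL-28, and VEGFA (-0.21 ± 0.058) and KDM3A (-0.25 ± 0.074), lower in it. P4HA2 (-0.04 ± 0.053, adjusted p = 0.603), ANKRD37 (0.17 ± 0.092, adjusted p = 0.198) and LOX (0.14 ± 0.32, adjusted p = 0.778) did not pass. Without A375 etoposide replicate 1, BHLHE40 was the 1 gene still called, with ADM at 0.56 and NDUFA4L2 at 0.80. The call of ADM was also lost without SK-MEL-28 etoposide replicate 3 (0.58), and that of NDUFA4L2 without A375 etoposide replicate 2 (1.03) or SK-MEL-28 etoposide replicate 1 (0.99), as well as when every gene with 1 count or more was kept (1.07, adjusted p = 0.0542). The adjusted p of VEGFA was above 0.05 without A375 etoposide replicate 2 (0.0719), and that of KDM3A without A375 etoposide replicate 3 (0.0919) or SK-MEL-28 etoposide replicate 2 (0.0872) or 3 (0.103).

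Levels were compared between genes per kilobase of the canonical transcript. With etoposide in A375, NDRG1 led at 106 ± 3.14 CPM per kilobase (SD, n = 3), followed by P4HA1 at 26.7 ± 0.76, VEGFA at 25.2 ± 1.37, BHLHE40 at 24.2 ± 0.90, KDM3A at 22.8 ± 1.40, P4HA2 at 21.2 ± 0.56 and ANKRD37 at 19.9 ± 1.503. From P4HA1 to ANKRD37 each neighbour in this order overlapped the next. ADM followed at 9.95 ± 0.68, NDUFA4L2 at 1.05 ± 0.45 and LOX at 0.217 ± 0.021, with no overlap between them. With rapamycin BHLHE40 moved from the fourth place to the seventh in A375, at 15.7 ± 1.77 CPM per kilobase, where it overlapped ANKRD37 at 17.2 ± 1.23. In SK-MEL-28, P4HA1 stood alone in second place, at 35.2 ± 1.02 with etoposide and 23.7 ± 0.30 with etoposide + rapamycin. BHLHE40 was eighth in both SK-MEL-28 groups, at 14.4 ± 0.61 and 6.63 ± 0.40 CPM per kilobase. NDRG1 was the highest and LOX the lowest of the 10 in all 4 groups.

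Over the 45 pairs of genes, the correlation of their deviations from the group means across the 12 libraries had a median of -0.08 and was positive in 20 pairs, and the mean over all genes was near 0. All pairs rest on the same 12 libraries, with their depth and scaling, and these values are a description.

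Of 30 other hypoxia-induced genes listed, 28 were tested. Their medians were -0.44 (A375) and -0.55 (SK-MEL-28), and 8 were called lower in A375 and 12 in SK-MEL-28. Among the 8 called lower in both lines, those with the largest smaller fall of the 2 lines were CA9, VLDLR, TMEM45A and AK4. CA9, a carbonic anhydrase of the cell surface, averaged 10.8 CPM with etoposide and 1.00 CPM with etoposide + rapamycin in A375, and 27.8 and 1.02 CPM in SK-MEL-28, for fold changes of -3.42 ± 0.18 (adjusted p = 1.21e-07) and -4.76 ± 0.23 (adjusted p = 8.34e-08). VLDLR, a lipoprotein receptor, fell by 1.18 ± 0.10 and 1.76 ± 0.097 on the log2 scale, TMEM45A by 1.17 ± 0.17 and 1.66 ± 0.12, and AK4, a mitochondrial adenylate kinase, by 0.82 ± 0.082 and 1.05 ± 0.051. The 2 most abundant per kilobase were TFRC, the transferrin receptor, at -0.56 ± 0.049 in A375 and -0.77 ± 0.045 in SK-MEL-28, and PLOD1, a collagen lysyl hydroxylase, at -0.18 ± 0.047 and -0.45 ± 0.0505. In A375 1 gene of the list was called higher, CA12, a second carbonic anhydrase named after its values were seen, at 1.17 ± 0.34 (adjusted p = 0.0231). It held few counts there, 16 to 37 per library with etoposide and 44 to 60 with etoposide + rapamycin. In SK-MEL-28 CA12 did not pass the test (-0.22 ± 0.34, adjusted p = 0.715).

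The hypoxia-induced glycolytic genes had a median of -0.21 with A375 cells and -0.46 with SK-MEL-28 cells. All 21 listed were tested, of which 2 were called lower in A375 and 7 in SK-MEL-28. ALDOC, an aldolase, gave -1.63 ± 0.086 and -2.42 ± 0.079, and PDK1, the kinase that shuts off pyruvate dehydrogenase, gave -0.98 ± 0.11 and -1.51 ± 0.085. The abundant enzymes GAPDH (0.02 ± 0.040 and -0.20 ± 0.029) and PKM (-0.09 ± 0.036 and -0.46 ± 0.031) fell in SK-MEL-28 and did not pass the test in A375. The response differed between the lines for 16 of the 21 glycolytic genes, each lower in SK-MEL-28, for 3 of the 10 genes described here, and for 11 of 28 other hypoxia-induced genes, 9 lower and 2 higher in SK-MEL-28. The medians of these differences were -0.28, -0.12 and -0.24 in that order, beside 0.02 over all genes.

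**Figure D5:**
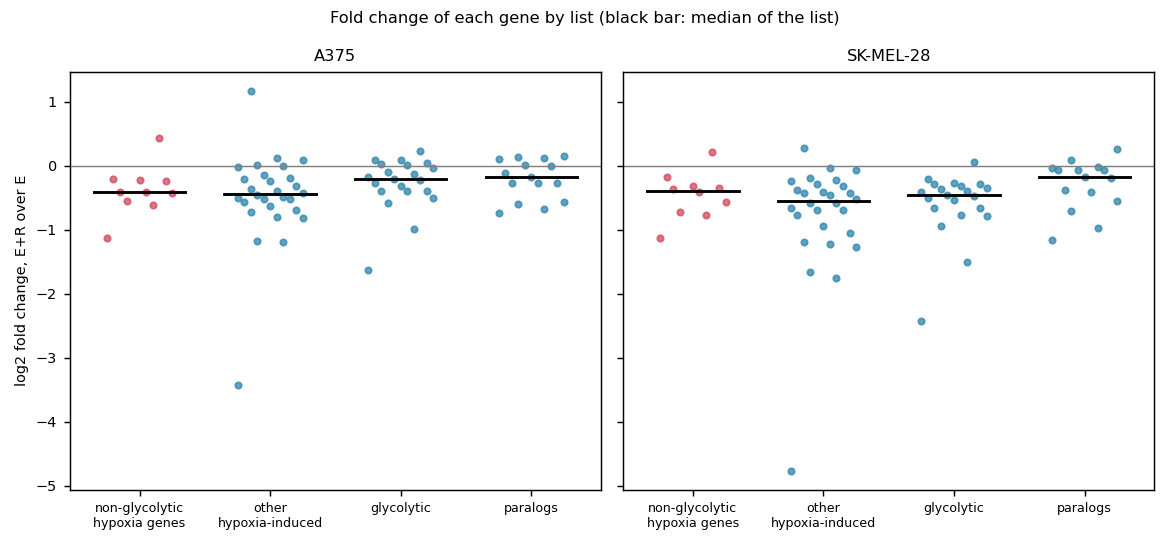
Log2 fold change of each tested gene, etoposide + rapamycin (E+R) over etoposide (E), for the 10 genes (red) and for 28 other hypoxia-induced genes, 21 glycolytic genes and 15 paralogs (blue), with a black bar at the median of each list. The median of the 10 genes is -0.41 in A375 and -0.39 in SK-MEL-28, and the lowest point in each panel is CA9.

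The factors and hydroxylases above these genes were measured in the same libraries. Of 10 listed, 9 were tested, with medians of -0.18 in both lines. HIF1A, the ubiquitous alpha subunit, averaged 494 CPM with etoposide and 312 CPM with etoposide + rapamycin in A375, and 351 and 299 CPM in SK-MEL-28. It was called in A375 (-0.66 ± 0.041, adjusted p = 5.55e-07), fell less in SK-MEL-28 (-0.23 ± 0.052, adjusted p = 0.00778), and its response differed between the lines by 0.44 ± 0.062 (adjusted p = 0.000666), with the sign opposite to NDRG1, P4HA2 and BHLHE40. EPAS1, a more restricted alpha subunit, was called in both lines, at -0.85 ± 0.12 in A375 (adjusted p = 0.000281) and -1.39 ± 0.12 in SK-MEL-28 (adjusted p = 8.2e-06), with a difference of -0.54 ± 0.17 that did not pass the test (adjusted p = 0.0814). ARNT, the shared partner subunit, gave -0.18 ± 0.053 in A375 (adjusted p = 0.0212) and -0.10 ± 0.057 in SK-MEL-28 (adjusted p = 0.287). EGLN1, the main oxygen-sensing hydroxylase, fell by 0.31 ± 0.047 in A375 (adjusted p = 0.000425) and by 0.42 ± 0.048 in SK-MEL-28 (adjusted p = 4.99e-05) on the log2 scale. VHL, which marks hydroxylated alpha subunits for degradation, gave -0.03 ± 0.052 in A375 (adjusted p = 0.678) and -0.07 ± 0.048 in SK-MEL-28 (adjusted p = 0.335). The protein levels of these factors were not measured in these libraries.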

How the data were processed

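Clean reads were aligned by the authors (HISAT2 2.2.0, GRCh38), who then converted alignments using Samtools 1.3.1 and quantified genes of Ensembl release 90 by StringTie 2.1.4. The counts the authors deposited are whole numbers for each gene in each library, neither normalized nor pooled. How coverage became counts, and the strand setting, are not stated in the methods, so no counting interval is given. All 12 columns matched a label, leaving 0 unmatched. A further 5 rows carry no gene name. They held 0.00099 to 0.0053% of the counts per library and were left out.

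Each line was fitted with edgeR 4.0.16 (filterByExpr, minimum count 10, TMM, glmQLFit, glmQLFTest) in R 4.3.3, and a fit of all 12 libraries tested the difference between lines. P-values were adjusted by Benjamini-Hochberg over all genes tested. A call needed both an adjusted p under 0.05 and more than a 1.5-fold change, the thresholds in the methods of the study, and a difference between lines an adjusted p under 0.05. Standard errors were derived from each log2 fold change and its F statistic (absolute value over root F). CPM were computed with TMM-scaled library sizes over all 12 libraries. Positions, exons, overlaps and canonical transcript lengths came from GENCODE release 44 (GRCh38). Promoters came from a set built on RefSeq starts (GRCh38.p14), and VEGFA, NDRG1 and NDUFA4L2 had no entry in the set used here.

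Replicate counts differed beyond sampling noise in every pair of a group, and same-numbered libraries did not deviate together (correlations from -0.07 to 0.0005), so no pairing was used. The 10 genes, the other lists and the tests were chosen with earlier results of these data known. The genes named were the 10 and, by rule, any tested paralogs, receptors and oxygen-sensing genes (not all of which are described), the fixed cell type markers, and of each other hypoxia list up to 4 genes called in both lines with the largest smaller change, the 2 most abundant per kilobase, and any called in opposite directions. Genes outside this rule are marked, and UFSP2, SRFBP1 and SHMT2 were named for their overlap. The alternatives tried were a test by DESeq2 1.42.0, edgeR with DESeq2 size factors or unscaled library totals, looser (1 count in any library) and stricter (mean of 50 counts) filters, 1 fit of all libraries, a replicate block, counts halved, no fold change threshold, a test against 1.5-fold, and each library left out in turn. The test was first run on simulated counts.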

Additional observations from a re-analysis of the deposited data

Results flagged for a closer look

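A test of the interaction between cell line and treatment in edgeR found that 3 of the 10 genes responded differently in the 2 lines. The log2 fold change in SK-MEL-28 minus that in A375 was -0.35 for NDRG1, -0.49 for P4HA2 and -0.50 for BHLHE40. Each of these genes was lower with rapamycin in all 3 libraries of both lines. Under etoposide, the SK-MEL-28 level was above that of A375 for NDRG1 (0.26 ± 0.045 on the log2 scale), below it for BHLHE40 (-0.74 ± 0.060) and did not pass the test for P4HA2 (-0.04 ± 0.053). The cause of the 3 differences was not tested.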

How the results depend on the processing

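Of 603 values recomputed for single genes, 581 kept their direction and their call (adjusted p and fold change together), 9 reversed, 7 lost a call and 6 gained one. The 1 gene called in A375 became 3 with library totals, which added P4HA1 and LOX, 2 with counts halved, 7 with no fold change threshold, 0 in a test against a fold change of 1.5, and 0 to 2 with each library left out. The 3 called in SK-MEL-28 became 4 with library totals, which added P4HA1 (-0.61), 2 in a test against 1.5-fold, 8 with no fold change threshold and 3 to 4 with each library left out. The 3 called between the lines under etoposide became 7 with no fold change threshold, 1 in a test against 1.5-fold, and 1 to 3 with each library left out. The 3 differences between the lines were found in all 19 alternatives. The reversed values belong to fold changes that never passed the test. With each library left out, LOX in SK-MEL-28 ranged from -0.25 to 0.55, LOX between the lines under etoposide from -0.18 to 0.34, the difference of ADM from -0.0581 to 0.1276 and that of P4HA1 from -0.044 to 0.0041. With the replicate block 1 gene was called in A375, 3 in SK-MEL-28, 3 in the difference and 3 between the lines under etoposide, and the medians were -0.41 and -0.39. Every correlation between same-numbered libraries was under 0.1, so no shared deviation was seen. These correlations cannot tell whether the cultures were set up in pairs. Library totals gave a median of -0.45 (A375) and -0.42 (SK-MEL-28). Crossings of the adjusted p alone, for ADM in A375, ANKRD37 in SK-MEL-28, and VEGFA and KDM3A between the lines, stand beside those genes, and KDM3A also crossed under the filter of 1 count in any library (0.0749). Low counts and the spread between replicates limit LOX, at 9 to 63 counts per library, and NDUFA4L2, at 18 to 70. LOX had no value under the filter of a mean of 50 counts, and neither had NDUFA4L2 in the fits where its mean was lower. The causes of these changes were not tested.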
